A study of Rattus norvegicus with 12 samples.

Results

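Among 38523 rat array probes measured above background in every sample, 104 separated the untreated stroke model from both other groups: 63 probes were brighter and 41 dimmer in all 4 model arrays than in all 8 control and decoction arrays. They are 0.270% of the probes that could qualify. The probes carry the prefix rclstr, which 57102 of the 60148 distinct probes on the array share, and each is a 60-base sequence. No gene name accompanies any of them, and what kind of RNA they detect is not stated, so each is given by its name, sequence and values.

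RNA came from brain of male rats, with 12 samples on as many 1-colour arrays. The control group was normal tissue. The model group had embolization of the middle cerebral artery and was sampled at day 7. The BHD group had the same embolization, received Buyang Huanwu Decoction and was also sampled at day 7. No allele or strain is named, and 4 samples stood in each group. The labels disagree in places: the tissue field reads brain where descriptions name hippocampus, the design text applies ischaemia to every group while control samples are labelled normal, and all BHD descriptions carry the replicate number 4, so replicates were numbered from the titles. Most samples are called biological replicates but none is tied to an animal, so a p-value here reflects only sample-to-sample spread, which may be technical. All arrays were of like quality, with 73.1% to 77.2% of probes well above background.

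Embolization of the middle cerebral artery cuts off much of the blood supply of one hemisphere and is a standard rodent model of ischaemic stroke. Buyang Huanwu Decoction is a Chinese herbal preparation built on astragalus root and used after stroke. The study addresses circular RNAs, closed loops made when a downstream splice donor joins an upstream acceptor, which are abundant in brain and resist exonucleases. The RNA here was copied from a primer that anneals to runs of A, so a labelled molecule need not be circular. In RNA from whole tissue, fewer cells holding an RNA and less of that RNA per cell cannot be told apart.

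The members were selected on the deposited log2 values. Every model array had to lie on one side of every other array, the model mean had to differ from the mean of the other 8 by at least 1.5-fold, and the probe had to be well above background on all 12 arrays. These differences are therefore descriptions without a test. The same rule found 177 probes higher and 282 lower in control alone, and 157 higher and 339 lower in BHD alone, so that 459 and 496 probes set those groups apart against 104 for the model. With no minimum difference the model count was 298 higher and 196 lower, against 864 and 1202 for control and 641 and 1269 for BHD. On one slide, row 1 carried the control group and row 2 the model group. BHD arrays lay in row 1 of another slide. Slide row and the model group cannot be told apart.

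The 5 brighter probes with the largest differences are shown first, 5′ to 3′ as synthesised on the array, followed by the 2 with the lowest BHD level relative to control. Capitals mark the longest run of pyrimidines (C or T), because the 63 brighter probes as a set had a higher median pyrimidine share than all qualifying probes, although not every probe shown does.
rclstr_27181_1277_6: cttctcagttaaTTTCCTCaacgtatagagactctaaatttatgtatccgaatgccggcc
rclstr_47601_508_27: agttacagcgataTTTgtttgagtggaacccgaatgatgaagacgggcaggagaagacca
rclstr_49208_641_34: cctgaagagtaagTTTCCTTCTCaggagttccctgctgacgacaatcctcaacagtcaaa
rclstr_23173_2114_17: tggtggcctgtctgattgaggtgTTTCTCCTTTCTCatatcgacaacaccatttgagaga
rclstr_37285_600_11: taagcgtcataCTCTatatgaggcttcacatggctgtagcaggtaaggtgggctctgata
rclstr_44979_24_14: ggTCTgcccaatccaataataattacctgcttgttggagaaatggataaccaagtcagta
rclstr_15054_559_12: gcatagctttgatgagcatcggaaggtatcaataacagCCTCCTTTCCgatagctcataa

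The 5 dimmer probes with the largest differences, and the 2 with the highest BHD level relative to control, have the longest run of purines (A or G) in capitals. A short purine word recurs among the dimmer probes.
rclstr_59921_47_23: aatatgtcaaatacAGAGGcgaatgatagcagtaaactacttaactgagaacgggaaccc
rclstr_44954_775_8: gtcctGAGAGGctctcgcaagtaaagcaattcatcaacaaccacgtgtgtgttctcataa
rclstr_27273_788_8: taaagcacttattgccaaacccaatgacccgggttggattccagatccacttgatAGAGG
rclstr_10408_924_7: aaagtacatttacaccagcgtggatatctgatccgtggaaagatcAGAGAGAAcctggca
rclstr_64725_101_13: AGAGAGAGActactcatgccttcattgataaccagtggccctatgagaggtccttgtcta
rclstr_28011_467_14: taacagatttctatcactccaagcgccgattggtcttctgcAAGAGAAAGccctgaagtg
rclstr_64257_255_34: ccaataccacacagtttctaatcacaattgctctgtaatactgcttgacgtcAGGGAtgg

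The brighter and dimmer probes differed in how the model stood to each other group, and a shift in the untreated model alone described some of the probes better than others. Among the 63 brighter probes, the median difference of the model from control was 0.59 and from BHD 0.88 on the log2 scale. BHD lay below control in 50 of the 63, so the usual order was model above control above BHD. In 16 of the 63 the distance between BHD and control exceeded the distance of the model from the nearer group, and 30 of the 63 stood at least 1.5-fold from both group means. Among the 41 dimmer probes the model lay about equally far from both groups, with medians of -0.73 from control and -0.78 from BHD. BHD was below control in 20 of them, the BHD to control distance was the larger in 3, and 31 stood at least 1.5-fold from both means.

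Most differences were modest. Over the brighter probes the model exceeded the mean of the other 8 arrays by 0.59 to 1.76, with a median of 0.71 (1.64-fold), and 5 of them reached 2-fold. For the dimmer probes the difference ran from -1.37 to -0.59, with a median of -0.75 (the other arrays 1.68-fold brighter), and 4 reached 2-fold. Over all probes that could qualify the median difference was 0.01. The interval between the model arrays and the closest other array was under 0.1 in 27 of the 63 and 14 of the 41. Members were mostly dim: 62 of the 63 and 34 of the 41 lay below the median level of all qualifying probes, which was 7.72, and the members' own medians were 5.39 and 5.32.

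Of the brighter probes, rclstr_27181_1277_6 had the largest difference. Its log2 level was 3.34, 3.63, 3.51 and 4.77 in control replicates 1 to 4, 6.13, 6.23, 5.49 and 6.58 in the model, and 5.01, 5.27, 4.31 and 4.94 in BHD. Group means were 3.81 ± 0.65, 6.11 ± 0.46 and 4.88 ± 0.41 (SD, n = 4), and the model stood 3.38-fold above the other 8 arrays. The model arrays were all highest, control 4 reached into the BHD range, and the other control arrays lay below every BHD array.

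In rclstr_47601_508_27 the same order appeared at a slightly higher level. Control replicates 1 to 4 read 4.55, 4.77, 4.53 and 5.46, the model 6.81, 6.84, 6.18 and 7.07, and BHD 5.67, 6.14, 5.14 and 5.42. The lowest model array exceeded the highest BHD array by only 0.04, and the model stood 2.86-fold above the rest. Again control 4 was the highest control array and model 3 the lowest model array.

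The clearest separation among brighter probes belonged to rclstr_49208_641_34. It measured 5.98, 5.71, 5.77 and 6.90 in control, 7.91, 7.79, 7.57 and 8.19 in the model and 6.88, 6.91, 6.51 and 7.01 in BHD. The nearest other array lay 0.57 below the lowest model array, the only interval of 0.5 or more among the 63, and the fold was 2.65. A similar picture held for rclstr_23173_2114_17, with 6.60, 6.54, 6.26 and 7.67 in control, 8.40, 8.44, 7.99 and 8.76 in the model and 7.23, 7.39, 7.19 and 7.57 in BHD, a fold of 2.53.

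These 4 probes varied together from array to array. After each group's mean was removed, their pairwise correlations over the 12 arrays ran from 0.765 to 0.951, a description of values that share arrays and normalization. They share no stretch of 20 bases, and their pyrimidine shares range from 35.0% to 58.3%. Of the other 38519 qualifying probes, 3 correlated above 0.9 with their mean profile within groups: rclstr_8690_367_16 (0.914), rclstr_62796_163_16 (0.910) and rclstr_35804_867_7 (0.907). None of those 3 was set apart in the model, where their differences from the other 8 arrays were -0.17, -0.50 and 0.12.

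The fifth probe, rclstr_37285_600_11, followed a different course. Control arrays read 9.03, 7.85, 8.92 and 7.73 and BHD arrays 9.39, 7.50, 8.94 and 7.63, so replicates 1 and 3 of both groups were well above replicates 2 and 4. The model arrays were close together at 9.67, 9.58, 9.79 and 9.68 (9.68 ± 0.08, SD, n = 4), against 8.38 ± 0.69 in control and 8.36 ± 0.94 in BHD. The model stood 2.47-fold above the other 8 arrays. Its within-group correlation with each of the other 4 was negative, from -0.53 to -0.41.

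Among the dimmer probes, rclstr_59921_47_23 stood furthest apart. It read 5.11, 5.23, 4.64 and 4.60 in control, 3.81, 3.78, 3.48 and 3.56 in the model and 5.81, 5.42, 4.90 and 4.53 in BHD. Its group means were 4.89 ± 0.32, 3.66 ± 0.16 and 5.16 ± 0.56 (SD, n = 4). The other 8 arrays were 2.59-fold brighter than the model, and 0.72 separated the highest model array from the lowest other array, the widest interval of all 104 members.

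Next came rclstr_44954_775_8, at 6.17, 5.43, 5.72 and 5.27 in control, 4.50, 3.76, 5.14 and 4.33 in the model and 5.45, 5.27, 6.17 and 5.85 in BHD. Its model arrays were the scattered ones, with an SD of 0.57, and model 3 lay 0.14 below the nearest other array. In rclstr_27273_788_8 the scatter was in the other groups: 4.47, 6.54, 5.63 and 5.0 in control and 5.07, 6.93, 4.88 and 4.48 in BHD against 4.34, 4.14, 4.16 and 4.33 in the model. Replicate 2 of control and of BHD carried its highest values, and the nearest other array lay only 0.13 above the highest model array.

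The fourth largest, rclstr_10408_924_7, held 5.30, 5.54, 5.92 and 5.39 in control, 4.15, 4.53, 4.48 and 3.87 in the model and 4.86, 5.85, 5.0 and 5.04 in BHD. BHD lay between the groups in its mean, 5.19 ± 0.44 against 5.54 ± 0.27 in control and 4.26 ± 0.31 in the model (SD, n = 4). With a stronger signal, rclstr_64725_101_13 read 8.91, 9.32, 8.49 and 8.89 in control, 7.94, 7.81, 7.95 and 8.06 in the model and 9.63, 9.11, 8.63 and 8.08 in BHD. Its BHD arrays spanned most of the range, and BHD 4 came within 0.02 of the highest model array.

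The threshold cut through a continuous run of values. Just inside it, rclstr_14521_2712_6 and rclstr_32029_209_10 were higher by 0.59 each, and just outside rclstr_3436_5591_8 and rclstr_40284_56_10 were higher by 0.58 and 0.57. On the other side rclstr_65973_105_14 and rclstr_45997_362_10 were lower by differences of -0.59 each, and rclstr_62842_269_85 and rclstr_57346_175_16 fell just outside at -0.58 each.

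BHD against control is the only one of the 3 comparisons that the rule did not use directly, although it read the same arrays. All control arrays were on one slide and all BHD arrays on the other, so slide and group cannot be told apart in any BHD against control value below. BHD against control was tested with limma on 44715 probes, on log2 processed signal relative to the 75th percentile of each array. A probe was called at a Benjamini-Hochberg adjusted p under 0.05. The levels printed are the deposited values, so a tested difference can depart from that of the printed levels. Over all tested probes 10.7% were called, 3.85% higher and 6.89% lower in BHD. Of the 63 probes brighter in the model, 18 (28.6%) were called, and all 18 fell in BHD relative to control, by a median of 0.68 on the log2 scale. That direction depended in part on the scaling. With centring on spike-in (E1A) probes, 11 of the 63 were called lower in BHD and 2 higher. Among qualifying probes dimmer than the median, a set closer to the members in level, 12.5% were called in either direction. A low BHD level also lowers the mean of the other 8 arrays and so helps a probe meet the rule, so this share is not independent of how members were chosen. Of the 41 probes dimmer in the model, 1 (2.44%) was called, higher in BHD.

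The lowest BHD level relative to control belonged to rclstr_44979_24_14. Its control arrays read 5.33, 5.0, 4.99 and 4.86, the model 5.40, 5.58, 5.45 and 5.62, and BHD 3.87, 4.38, 3.92 and 4.31. No BHD array reached the lowest control array, while the highest control array was 0.07 under the model. The fall in BHD against control was -1.06 ± 0.16 (SE, limma adjusted p = 0.00373), and it passed in each of 24 alternative settings, with adjusted p between 0.00289 and 0.0133. For this probe BHD, not the model, stood furthest from the other groups.

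In rclstr_15054_559_12 the order was the same, with 6.24, 6.0, 5.91 and 6.59 in control, 6.76, 6.88, 6.59 and 6.85 in the model and 5.40, 6.0, 5.30 and 4.80 in BHD. BHD overlapped control in replicate 2, and control 4 came within 0.0022 of the lowest model array. The change was -0.89 ± 0.23 (SE, limma adjusted p = 0.0349). It missed the threshold without any single control array, without BHD 1, 3 or 4, and under 4 other settings including the replicate block (adjusted p between 0.0522 and 0.0885).

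The single dimmer probe called was rclstr_64257_255_34, at 6.58, 6.67, 6.55 and 6.50 in control, 5.97, 6.18, 6.21 and 5.84 in the model and 7.35, 7.42, 6.92 and 6.87 in BHD. The 3 groups did not overlap, with BHD highest and the model lowest. BHD rose by 0.53 ± 0.13 against control (SE, limma adjusted p = 0.0302). The call was lost without any single control array, without BHD 1 and in a fit of the BHD and control arrays alone (adjusted p between 0.0517 and 0.0794). For rclstr_28011_467_14 the BHD level was also the highest, at 8.63, 8.10, 8.65 and 8.41 against 7.86, 7.76, 7.76 and 7.95 in control and 6.69, 7.02, 7.73 and 7.53 in the model. Its BHD to control difference of 0.61 ± 0.20 (SE) had a limma adjusted p of 0.0772, and it passed in 4 of 24 alternatives: the fit of BHD and control arrays alone (adjusted p = 0.0261), spike-in centring (0.0295), and without model 1 (0.0427) or BHD 2 (0.0483). The lowest BHD values relative to control among the dimmer probes were in rclstr_10408_924_7, at -0.44 ± 0.23 (SE, limma adjusted p = 0.236), and rclstr_55042_304_18, at -0.40 ± 0.20 (SE, limma adjusted p = 0.210). The first passed only without BHD 2 (adjusted p = 0.0270) and the second only without control 1 (adjusted p = 0.0489) among 24 alternatives.

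The opposite end of the brighter set had BHD above control. In rclstr_27181_1277_6 the difference was 0.92 ± 0.34 (SE, limma adjusted p = 0.108), and it passed without control 4 (1.22, adjusted p = 0.0404) or with spike-in centring. In rclstr_49208_641_34 it was 0.69 ± 0.24 (SE, limma adjusted p = 0.0926), and it passed without control 4 (0.96, adjusted p = 0.0149), with the replicate block (adjusted p = 0.0377) or with spike-in centring. Control 4 was the highest control array in both.

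The other comparisons were used by the rule and are given for completeness, with nothing read from them. Between model and control, 1 of the 63 and 0 of the 41 were called by limma against 0.047% of all tested probes. Between BHD and model, 51 of the 63 and 13 of the 41 were called against 3.19% of all tested probes.

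Where the members lay on the array was not part of the rule, and the brighter probes were not spread evenly. Each array is a grid of 384 rows of spots, and 59 of the 63 (93.7%) lay in rows 1 to 192, where 49.7% of qualifying probes and 49.6% of those dimmer than the median lay. In successive bands of 48 rows their number was 7, 18, 26, 8, 2, 1, 0 and 1. The share was smaller with no minimum difference, at 205 of 298 (68.8%), and 64.7% to 78.9% under the other scalings. Of the probes that met the rule itself, 60 of 64 lay in rows 1 to 192 with 75th percentile scaling. With quantile normalization 59 of 63 lay there, and with spike-in centring 132 of 153. After the other background correction described below, 3 of 5 lay there with 75th percentile scaling and 6 of 8 with quantile normalization. The 41 dimmer probes were spread out, with 18 (43.9%) in rows 1 to 192. Probes set apart in the other groups were spread out too: 47.5% of the 177 higher and 52.8% of the 282 lower in control alone, and 45.9% of the 157 higher and 47.8% of the 339 lower in BHD alone, lay in those rows. All 18 brighter probes called in BHD against control were in rows 1 to 192. The 4 that lay below were rclstr_49208_641_34, rclstr_23173_2114_17, rclstr_8142_2116_14 and rclstr_43554_601_8, so that 2 of the 4 largest differences came from outside the rows that held the rest.

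Base composition was not used by the rule either. The median share of C and T was 56.7% in the brighter probes, 48.3% in the dimmer ones and 50% in all that could qualify. A share over 50% was found in 51 of the 63 (81.0%) against 44.7% of qualifying probes, and 48 of those 51 lay in rows 1 to 192. GC content barely varied, with a range of 40% to 46.7% over all qualifying probes. The longest pyrimidine run had a median of 7 bases in the brighter probes against 5 in all, and the longest purine run a median of 6 in the dimmer probes against 5.

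The same tilt was present in dim probes as a whole. In the dimmest 25% of qualifying probes, those in rows 1 to 192 had a median model difference from the other 8 arrays of -0.06 where C and T made up 40% or less, -0.01 over 40 to 50%, 0.07 over 50 to 60% and 0.20 above 60%. In rows 193 to 384 the corresponding medians were -0.05, -0.04, -0.01 and 0.04. The upper rows held 12 brighter members among 460 probes of the highest class and 2 among 498 of the lowest, and the lower rows held 0 among 423 and 0 among 550. BHD went the other way with composition in both sets of rows, from 0.10 to -0.20 in the upper rows and from 0.12 to -0.17 in the lower rows. Control medians lay between -0.0136 and -0.0031 in the upper rows but went from -0.05 to 0.12 in the lower rows, a wider range than the model's there. In any probe the differences of model, BHD and control from their other 8 arrays cancel out. The tilts of the groups are therefore bound together and are not separate observations. The part of spot position and composition in the members' differences was not tested, and both were examined after the values were seen.

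A pair of 5-base words, picked after the values were seen, show the composition in letters. TCCCT on the probe strand was in 15 of the 63 brighter probes (23.8%) and 1 of the 41 dimmer ones (2.44%), against 7.06% of all qualifying probes of this length. Its reverse complement was in 6.35%, 9.76% and 5.14% of the same sets. AGAGG was in 10 of the 41 dimmer probes (24.4%) and 1 of the 63 brighter ones (1.59%), against 6.87% of all, and its reverse complement in 0, 14.3% and 7.46%. The second word can be read in the capitals of rclstr_59921_47_23, rclstr_44954_775_8 and rclstr_27273_788_8 above. These are matches of letters, not binding sites.

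Most memberships were lost under another background correction, which also added an offset of 50 to every spot. Such an offset by itself shrinks log2 differences, most in dim probes. Its part in the losses cannot be told apart here from that of the correction. With normexp correction of the raw spot signal in place of the scanner software's own, every member kept its sign, but the brighter probes' median difference shrank from 0.71 to 0.33 and the dimmer probes' from -0.75 to -0.31. Only 5 of the 63 and 7 of the 41 then met the rule after scaling to the 75th percentile, although the model arrays stayed apart from all others in 39 and 27. Under all 5 other scalings 5 brighter and 4 dimmer probes met it. The brighter 5 were rclstr_23173_2114_17, rclstr_27181_1277_6, rclstr_37285_600_11, rclstr_49208_641_34 and rclstr_32912_155_20.

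The dimmer 4 had mean levels of 7.34 to 8.79, above the 5.32 median of their direction. Their sequences are given because they met the rule under all 5 other scalings examined. Capitals mark the longest purine run.
rclstr_39573_182_2549: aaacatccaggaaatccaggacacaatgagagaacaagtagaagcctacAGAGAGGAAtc
rclstr_52287_169_19: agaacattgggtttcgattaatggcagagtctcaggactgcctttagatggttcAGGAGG
rclstr_54711_332_8: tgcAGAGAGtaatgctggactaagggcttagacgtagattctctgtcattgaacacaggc
rclstr_58253_382_65: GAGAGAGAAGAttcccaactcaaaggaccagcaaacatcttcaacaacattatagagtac

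In rclstr_39573_182_2549 control arrays read 8.69, 8.60, 8.98 and 8.58, the model 8.30, 8.02, 8.10 and 7.95, and BHD 9.01, 9.17, 8.64 and 8.50. For rclstr_58253_382_65 the values were 8.96, 9.18, 8.81 and 8.84 in control, 8.40, 8.26, 8.32 and 8.30 in the model and 9.65, 9.45, 8.74 and 8.54 in BHD. The other 8 arrays were 1.60-fold and 1.63-fold brighter than the model. In both probes BHD 1 and 2 lay above every control array. BHD 4 lay below every control array in both, and BHD 3 did so in rclstr_58253_382_65 only.

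The remaining pair behaved alike. In rclstr_52287_169_19 the model read 7.64, 7.53, 7.46 and 7.36 against 7.94, 8.22, 8.53 and 8.20 in control and 8.62, 8.59, 8.09 and 7.89 in BHD. In rclstr_54711_332_8 it read 6.92, 6.59, 6.71 and 6.97 against 7.23, 7.65, 7.82 and 7.57 in control and 7.95, 8.02, 7.19 and 7.46 in BHD. None of the 4 was called in BHD against control, with limma adjusted p between 0.664 and 0.857. Over all 41 dimmer probes, BHD 2 was the highest BHD array in 27, BHD 1 in 8, and control 3 the highest control array in 24. Among the brighter probes control 1 was the highest control array in 29 of 63.

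No stretch of 20 bases or more was shared between any 2 members on either strand, and no 2 members shared the first number of their name. With probes outside the set, 3 of the 63 (4.76%) and 2 of the 41 (4.88%) shared such a stretch, against 6.83% of all qualifying probes. The longest overlap, chosen for display after the values were seen, is in capitals below. A probe with part of the same sequence is the nearest thing here to a second measurement of a member.
rclstr_38876_72_1011: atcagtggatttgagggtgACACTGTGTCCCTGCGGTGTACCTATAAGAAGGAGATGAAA
rclstr_27580_160_15: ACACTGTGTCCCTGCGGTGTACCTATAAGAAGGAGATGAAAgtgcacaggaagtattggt

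The member rclstr_38876_72_1011 read 5.29, 5.62, 5.85 and 5.17 in control, 6.14, 6.37, 6.01 and 6.21 in the model and 5.19, 5.58, 5.97 and 5.42 in BHD, a difference of 0.67 from the other 8 arrays. Its partner rclstr_27580_160_15, offset along the same strand by all but 41 shared bases, read 6.77, 6.93, 7.27 and 6.70 in control, 7.44, 7.65, 7.27 and 7.23 in the model and 6.69, 7.08, 7.37 and 6.54 in BHD. The partner was higher in the model by 0.48, but its model arrays overlapped control 3 and BHD 3. The partners of the other members with shared stretches had smaller differences where they were measured on all arrays: 0.22 for rclstr_43010_387_20, -0.34 for rclstr_39154_68_2528 and -0.18 for rclstr_25898_1931_10, each with the sign of its member. The last of these shares its 20 bases with rclstr_52029_258_19 on the opposite strand, so it reads the other strand and is no second measurement of that member. The partner of rclstr_42736_92_10, rclstr_43001_88_6, was well above background on only 4 of the 12 arrays.

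Set against RefSeq sequences around gene starts (GRCr8, 250 bases before to 50 after), 3 of the 63 brighter probes and 0 of the 41 dimmer ones matched over all 60 bases, against 360 of 38523 (0.935%) qualifying probes. No member matched a miRNA hairpin. The probe rclstr_31101_45_11 matched chr4:64043923-64043982 on the strand of Akr1b7, a protein-coding gene of the aldo-keto reductase family, whose enzymes reduce aldehydes and ketones. It starts 47 bases before the annotated start site, and capitals mark its last 13 bases, from the start site on, so most of the probe lies outside the annotated transcript.
rclstr_31101_45_11: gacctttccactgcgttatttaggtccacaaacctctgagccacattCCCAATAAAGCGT

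It read 4.91, 4.31, 5.08 and 4.32 in control, 5.39, 5.49, 5.50 and 5.37 in the model and 4.74, 4.60, 4.66 and 5.06 in BHD, and the model stood 1.66-fold above the other 8 arrays. Control and BHD overlapped, with group means of 4.66 ± 0.40 and 4.76 ± 0.20 (SD, n = 4), and their limma difference was -0.01 ± 0.18 (SE, adjusted p = 0.975). The other matches were to long noncoding RNA genes upstream of their starts: rclstr_8832_699_7 at chr4:123027739-123027798 on the strand of LOC102555035, and rclstr_49708_42_16 at chr11:45068356-45068415 on the strand opposite to LOC108352307. Both were called lower in BHD than in control, by -0.62 ± 0.12 and -0.74 ± 0.13 (SE, limma adjusted p = 0.0119 and 0.00748), and their model to control differences of 0.42 and 0.40 were the smaller ones.

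The 2856 probes named for CIRCpedia, a collection of circular RNAs, that were above background on all arrays gave a separate view under the same rule. None was higher in the model alone and 3 were lower, by -0.66 in RNO_CIRCpedia_1760_16_16, -0.70 in RNO_CIRCpedia_5566_16_22 and -0.67 in RNO_CIRCpedia_9127_16_11. The shares of rclstr probes were 0.164% higher and 0.106% lower, at which only a few of 2856 would qualify. These counts therefore show no contrast between the kinds of probe. Control alone gave 3 higher and 4 lower, and BHD alone 34 higher and 3 lower. Of 34 control probes not of rat sequence, 0 met the rule, and their model differences ran from -0.32 to 0.28. At the shares of rclstr probes above, so small a set would be unlikely to hold any, so nothing is read from that 0. With no minimum difference, 2 of the 34 were set apart lower in the model and 0 higher. The same demand set apart 196 lower and 298 higher among 38523 rclstr probes. Why those 2 control probes were lower was not tested.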

How the data were processed

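Per the submitters' processing notes, Agilent Feature Extraction 10.7.1.1 read the images. Scanner files hold linear spot intensity, processed by that software (background and spatial trend subtracted, per the file headers), raw mean and local background intensity, and 0 or 1 quality flags set per the file headers. A deposited table from the authors gives log2 values per probe and array. Their method is not given in the sources used here; each column had a median of 6.13 and correlated with its scanner values at 0.999 or higher, in the same direction. These log2 values chose the members and are the levels printed.

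Tests used limma 3.58.1 in R 4.3.3 on log2 processed intensity minus each array's 75th percentile. Outlier spots were left out and spots of a probe averaged. One mean per group was fitted over all 12 arrays, on probes that every array of 1 or more groups showed well above background, with Benjamini-Hochberg adjustment. The fit was also run on simulated arrays of independent noise with known changes added to some probes. That simulation held no effect of slide, spot position or composition, and nothing is read from it here. Precision is limited by 4 arrays per group.

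Members and lists were chosen with earlier results of these data known. Per direction, named probes were the 5 largest differences, the 2 just inside and 2 just outside the threshold, and the 2 highest and 2 lowest BHD minus control differences; ties in single-base runs added none. Marker gene lists could not be run on unnamed probes. Other scalings, background corrections, filters and fits, and leaving out each array, were alternatives. RefSeq tables (GRCr8) were searched for exact matches. The arrays' headers name a genome build but leave every probe unmapped.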

Additional observations from a re-analysis of the deposited data

Results flagged for a closer look

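In 1 of 69 groups of 4 arrays examined over the named probes, a single array stood far from the rest. For rclstr_14521_2712_6, the brighter probe just inside the threshold, BHD replicate 1 read 4.42 where the other BHD arrays read 3.98 to 4.05, a gap of 0.838 of the group's range. Chance alone marks about 1 in 20 such groups. Its difference from control in BHD was -0.16 ± 0.16 (SE, limma adjusted p = 0.548).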

How the results depend on the processing

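The number of brighter probes was 63 by the deposited values and 63 with quantile normalization, and 64 with 75th percentile scaling, of which 54 were shared. It was 5 with normexp then 75th percentile, 8 with normexp then quantile, 153 with spike-in (E1A) centring, 5 at a difference of at least 1, 298 with no size threshold, 144 with no filter on dim probes, 108 with the filter on 1 group, and 0 for CIRCpedia probes. The number of dimmer probes, 41 by the deposited values, was 9, 8, 23, 4, 196, 106, 65 and 3 under those same settings, and 29 with 75th percentile scaling. Leaving out 1 array cannot undo the separation of a member's arrays and can only loosen that demand. A member can then be lost only through the minimum difference. Such omission gave 63 to 121 brighter and 44 to 181 dimmer probes. Whichever 1 array was left out, 45 of 63 and 30 of 41 met the rule, which is therefore no check of the separation. The largest counts came without model 4 (121 brighter) and without model 1 (181 dimmer). Every member kept its sign under each scaling.

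Members called in BHD against control numbered 19, and 14 to 21 without 1 array. Over all tested probes the count was 4802, and 2400 to 5877 without 1 array. It moved beyond 1.5 times without control 2 (2727), control 3 (2400), control 4 (2633), BHD 1 (2572) or BHD 3 (2506). Spike-in centring gave 7419 calls (6194 higher and 1225 lower, against 1722 and 3080) and a median change of 0.14 over all probes against -0.03, so directions depend on that shift. Among members it gave 17 calls, of which 12 were shared with the main 19. They were 11 brighter probes lower in BHD, 2 brighter probes higher and 4 dimmer probes higher. Replicate numbers gave no sign of pairing, which does not exclude it. After each group's mean was removed, arrays of the same number in different groups correlated between -0.19 and 0.24 (median -0.08). Arrays of different numbers correlated between -0.30 and 0.30 (median 0.0023). The replicate block gave 17 calls among members and 3472 over all tested probes. Why settings differ was not tested. Dim signal limits most members.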
